A study of Mus musculus with 4 samples.

Results

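The Bcl2a1 family is represented here by Bcl2a1a, Bcl2a1b and Bcl2a1d, 3 near-identical mouse genes that encode copies of the pro-survival protein A1. They were found by symbol in the gene table, 3 of 32285 genes. RNA in fresh frozen MC38 tumors was measured by 10x Visium: tissue lies on a grid of spots, each spot tags the RNA it catches with its own barcode, and a UMI (unique molecular identifier) lets every caught molecule be counted once. MC38 cells come from a mouse colon carcinoma, and had been injected under the skin of female mice 8 to 12 weeks old. There were 4 sections: 2 from hosts of genotype C57BL/6J x CC075/UncJ (CC075F1), whose tumors respond to anti-PD-1 by the study's classes, and 2 from hosts of genotype C57BL/6J x CC080/TauUncJ (CC080F1), the non-responder class. Each host had received 200 µg of the isotype control antibody 2A3 once, when its tumor measured 75 to 110 mm3, and was killed after 48 hours, so that no tumor treated with anti-PD-1 was compared.

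A1 belongs to the BCL-2 family, whose pro-survival members (BCL-2, BCL-XL, BCL-W, MCL-1 and A1) hold back the pore-forming effectors BAX and BAK and are themselves bound by BH3-only proteins such as BIM, BID and NOXA. A1 is expressed mainly in blood-derived cells. It is known as an NF-κB target that is induced in T cells after antigen receptor stimulation and in macrophages, granulocytes and mast cells after activation, and the mouse carries several copies of the gene where the human genome has a single one.

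The sections held 2710 to 3276 spots and 82594649 to 146460975 UMIs, with a median of 31139 to 41740 UMIs per spot. A spot is a small region that can hold several cells, so none of the values below belongs to a cell type. In CC075F1 replicate 2, the deepest section, 42 spots had skin, muscle or fat genes at 0.5% or more of their UMIs, against 0 spots in the other 3 sections. Of the genes taken to mark the tumor line, the epithelial genes Krt8, Krt18 and Epcam were at 0.382 CPM or less in every section (CPM, counts-per-million: UMIs scaled to the total of the section), whereas Shisal2b ran from 123 to 267 CPM. All 14 macrophage genes and all 12 T cell genes of the lists used below had UMIs in every section.

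The copies lie on mouse chromosome 9 (GRCm38, gene models of GENCODE vM21), within 485 kb. Bcl2a1d is at chr9:88723285-88731914 on the minus strand, Bcl2a1a at chr9:88956900-88962419 and Bcl2a1b at chr9:89199209-89207827, both on the plus strand. Each has 2 exons and a coding sequence of 519 bases with the stop codon. Coding identity was 97.9% between Bcl2a1a and Bcl2a1b (11 differing bases), 98.7% between Bcl2a1a and Bcl2a1d (7) and 98.8% between Bcl2a1b and Bcl2a1d (6). Another copy, Bcl2a1c (chr9:114330135-114330578, 1 exon), had 2 and 4 UMIs in the CC075F1 sections and 2 and 0 UMIs in the CC080F1 sections. These counts are near the limit of 3 UMIs that a count of 0 allows, and Bcl2a1c was not taken further.

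Some of the stretches that tell the copies apart are shown, because counts per copy rest on such bases. The other differing coding bases are not printed. Nor is the 1 base after the stop codon at which Bcl2a1a differs from Bcl2a1b and from Bcl2a1d. They are read from the GENCODE vM21 transcripts, 5′ to 3′, and capitals mark the bases at which any pair of the 3 copies differs. Positions are counted from 1 at the A of the start codon. In exon 2, Bcl2a1b stands apart at coding position 490 (A490T from Bcl2a1a to Bcl2a1b):
Bcl2a1a, chr9:88962229-88962253, plus strand: atgacaggacagAtctgggaaatgc
Bcl2a1b, chr9:89207639-89207663, plus strand: atgacaggacagTtctgggaaatgc
Bcl2a1d, chr9:88723451-88723475, minus strand: atgacaggacagAtctgggaaatgc
In exon 1, Bcl2a1a stands apart at coding position 337 (T337G from Bcl2a1a to Bcl2a1b):
Bcl2a1a, chr9:88957375-88957399, plus strand: gccctggatgtaTgtgcttacaaac
Bcl2a1b, chr9:89199684-89199708, plus strand: gccctggatgtaGgtgcttacaaac
Bcl2a1d, chr9:88731371-88731395, minus strand: gccctggatgtaGgtgcttacaaac
The single coding base that only Bcl2a1d has is at position 4, right behind the start codon (G4T from Bcl2a1b to Bcl2a1d) and 664 bases from the end of its transcript:
Bcl2a1a, chr9:88957051-88957066, plus strand: atgGctgagtCTgagC
Bcl2a1b, chr9:89199360-89199375, plus strand: atgGctgagtACgagT
Bcl2a1d, chr9:88731704-88731719, minus strand: atgTctgagtACgagT

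Visium captures RNA by its poly(A) tail, and Space Ranger counts a read only where it fits a single gene. Of the 211 windows of 90 bases in the last 300 bases of each transcript, 60.2% were found in no other family transcript for Bcl2a1a, 49.8% for Bcl2a1b and 10.4% for Bcl2a1d. The level of a copy therefore depends on how much of it can be told apart, and the split of counts between copies is uncertain, most so for Bcl2a1d. The 3 copies summed are used below wherever the split does not matter.

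The region just before the transcripts is shown as a description, and its part in the levels of the copies was not tested. In RefSeq promoter windows (GRCm38.p6, 250 bases before to 50 after each start), all 3 hold 1 copy of GAGGAAGT, a sequence of the kind bound by the ETS factor PU.1 of myeloid and B cells, on the gene's strand. The motif was chosen after these windows had been read. It was found on either strand in 3.2% of 32851 promoter windows. The stretches around it are near-identical between the copies, so the 3 matches are not independent. The motif is in capitals:
Bcl2a1a, chr9:88956778-88956851, plus strand: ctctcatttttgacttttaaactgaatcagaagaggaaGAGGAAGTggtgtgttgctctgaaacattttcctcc
Bcl2a1b, chr9:89199087-89199160, plus strand: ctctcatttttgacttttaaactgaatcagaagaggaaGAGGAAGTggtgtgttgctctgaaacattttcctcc
Bcl2a1d, chr9:88731919-88731992, minus strand: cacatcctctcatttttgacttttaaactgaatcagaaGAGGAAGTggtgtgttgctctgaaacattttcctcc
The stretches of Bcl2a1a and Bcl2a1b are identical, and that of Bcl2a1d lacks 1 of 2 adjoining gaggaa repeats. The motif starts 84 bases before the GENCODE start of Bcl2a1a and of Bcl2a1b, and 40 bases before that of Bcl2a1d. An NF-κB motif (8.46% of all windows), searched on both strands, had no match in these windows, which says only that those letters are not there.

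Every copy was higher in both CC075F1 sections than in both CC080F1 sections. These section levels are what the genes were chosen by, so they are given as a description without a test. The share of all genes that separate the strains in this way was not counted, and non-overlap was common among the gene lists described below. Bcl2a1a was at 25.6 and 22.1 CPM in CC075F1 replicates 1 and 2 and at 8.98 and 12.6 CPM in CC080F1 replicates 1 and 2. The lowest CC075F1 section was well above the highest CC080F1 section, and the means were 23.8 ± 2.45 and 10.8 ± 2.56 CPM (SD, n = 2 each), a ratio of 2.21. Bcl2a1b was at 86.1 and 78.2 CPM in CC075F1 and at 40.1 and 52.4 CPM in CC080F1. The ranges were again apart, with means of 82.1 ± 5.59 and 46.2 ± 8.64 CPM and a ratio of 1.78. Bcl2a1d was at 17.3 and 11.9 CPM in CC075F1 and at 6.82 and 8.71 CPM in CC080F1. Here CC075F1 replicate 2 came closer to the CC080F1 sections than replicate 1 did, and the means were 14.6 ± 3.79 and 7.76 ± 1.33 CPM, a ratio of 1.88. The 3 copies together made 120.5 ± 11.8 CPM in CC075F1 and 64.8 ± 12.5 CPM in CC080F1.

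**Figure D1:**
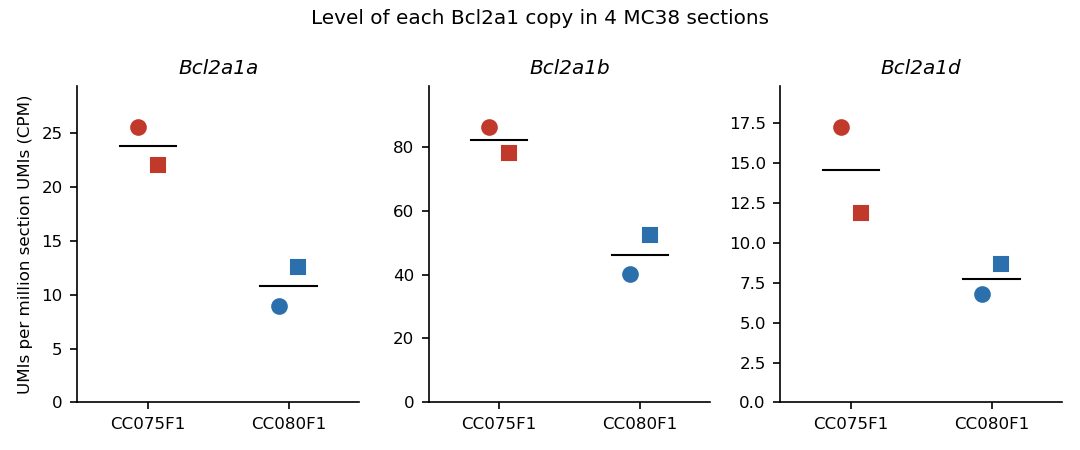
Level of Bcl2a1a, Bcl2a1b and Bcl2a1d in each section, in CPM on linear axes that start at 0 and differ between panels. Circles are replicate 1, squares replicate 2 and horizontal lines the mean of 2 sections; for each copy both CC075F1 sections lie above both CC080F1 sections.

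In the edgeR fit over all genes, with sections scaled by TMM, the log2 differences (CC075F1 over CC080F1) were 1.45 for Bcl2a1a, 1.14 for Bcl2a1b and 1.19 for Bcl2a1d. With library size alone they were 1.14, 0.83 and 0.91, as the median of all genes then was -0.31 in place of -0.02. In the TMM fit 0.0899% of 15572 genes passed an adjusted p of 0.05, and 0 of the 3 copies were among them. All 3 passed without the filter on low counts or with DESeq2, settings that called many more genes in all, as counted in the closing section. Nothing is read from these calls, since the contrast was used to choose the genes.

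The order of levels was the same in all 4 sections. Per kb of transcript, Bcl2a1b was 3.37 to 4.48 times as high as Bcl2a1a and 5.27 to 6.94 times as high as Bcl2a1d. Bcl2a1a was 1.39 to 1.96 times as high as Bcl2a1d. Within each strain the ranges of the 3 copies per kb did not overlap. A caught molecule is counted once whatever its length, and the transcripts are 817 to 863 bases long, so the scaling changes the ratios little. These ratios carry the unequal share of each transcript that can be told apart, given above. The gene Gm29094 overlaps Bcl2a1b on the same strand and is not in the gene table. Whether its RNA adds to the counts of Bcl2a1b was not tested.

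The share of each copy among the family's UMIs was then set out by section. Bcl2a1a made 19.8% (95% Clopper-Pearson interval, 19.1 to 20.6%) and 19.7% of the family's UMIs in the CC075F1 sections but 16.0% and 17.1% in the CC080F1 sections. Bcl2a1b made 66.8% and 69.7% against 71.8% and 71.1%, and Bcl2a1d made 13.4% and 10.6% against 12.2% and 11.8%. The strains were apart for Bcl2a1a and Bcl2a1b and overlapped for Bcl2a1d. Such intervals cover counting error only. The hosts of the strains differ in genotype, and all reads were aligned to the GRCm38 reference. Whether host variants change the counts of near-identical copies was not tested.

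Thinned to 10000 UMIs per spot, which leaves out 53 to 205 shallow spots per section, a UMI of any copy was found in 69.2% and 64.5% of CC075F1 spots and in 41.6% and 49.8% of CC080F1 spots. The sections were apart at this equal depth. At full depth the same shares were higher in every section, and a single spot held as many as 21 UMIs of Bcl2a1b, in CC075F1 replicate 2. For single copies the thinned shares averaged 19.9% and 9.60% (Bcl2a1a), 54.8% and 36.1% (Bcl2a1b) and 13.4% and 7.03% (Bcl2a1d) in CC075F1 and CC080F1. 

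Other lists also differed between the same sections. In CC075F1 over CC080F1 the summed CPM was 5.25 times as high for 6 MHC class II genes, 3.04 times for 12 T cell genes, 1.44 times for 12 IFN-γ-induced genes and 1.40 times for 14 macrophage genes, and the sections of the strains did not overlap for any of these lists. It was 0.725 times as high for 12 inflammatory myeloid genes, 0.675 times for the mast cell list and 0.643 times for the type I interferon list, with no overlap. It was 0.857 times as high for 12 NF-κB target genes and 0.68 times for the neutrophil list, whose sections overlapped. Non-overlap was common with 2 sections per strain, as the NK, B cell, fibroblast and endothelial lists also showed it. The gap was small for the IFN-γ-induced list, with 1090 CPM in CC075F1 replicate 2 and 1049 CPM in CC080F1 replicate 2. For the mast cell list these 2 sections were at 4.58 and 4.69 CPM. Measured against those lists, the family had 19.3 and 21.7 UMIs per 1000 macrophage-list UMIs in CC075F1 and 13.6 and 16.9 in CC080F1. Against the T cell list the order was the opposite, 1511 and 1632 UMIs per 1000 in CC075F1 and 2208 and 2904 in CC080F1. Fewer cells of a type and less RNA per cell cannot be told apart in such sums, and the part of these lists in the strain difference was not tested.

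The relation to myeloid, T cell and interferon genes was measured within sections, not by the strain levels that the genes were chosen by. The genes and lists were nevertheless chosen with earlier results of these data known. The p-values below may therefore not be free of that choice. Spots of at least 5000 UMIs were ranked by the summed UMIs of a gene list within 10 strata of spot depth, and the top tertile (high spots) was compared with the bottom tertile (low spots). UMIs were summed per section and class and fitted in edgeR with the section as a block, so that n is 4 sections. Adjusted p-values are Benjamini-Hochberg values of the quasi-likelihood test over all genes, and folds are high over low. A list's own genes rise by construction.

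All copies rose in IFN-γ-high spots, and this was the largest difference of the 8 contrasts for each of Bcl2a1a and Bcl2a1d. The list holds 12 genes induced by interferon-γ, led by the chemokine genes Cxcl10 and Cxcl9, the GTPase gene Gbp2 and the transcription factor gene Irf1. The summed copies were at 161 CPM in high and 102 CPM in low spots of CC075F1 replicate 1, and at 148 and 82.5 CPM in replicate 2. In CC080F1 they were at 63.1 and 50.3 CPM in replicate 1 and at 88.7 and 59.7 CPM in replicate 2. High spots were above low spots in 4 of 4 sections, by 1.25 to 1.80 times, while the median depth of the classes was nearly equal (31558 and 31485 UMIs in CC075F1 replicate 1). The log2 fold change was 0.68 ± 0.06 (SE) for Bcl2a1a (adjusted p = 0.000135), 0.43 ± 0.06 for Bcl2a1b (adjusted p = 0.00129) and 0.64 ± 0.10 for Bcl2a1d (adjusted p = 0.00271). All 3 copies were called higher, where 9.86% of 13857 genes were.

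Other lists rose in the same spots. Of those measured, all 6 MHC class II genes, all 9 type I interferon genes, all 6 NK cell genes, 10 of 12 T cell genes and all 6 endothelial genes were called higher, but only 6 of 14 macrophage genes, with 1 lower. The summed macrophage list was 1.09 to 1.44 times as high in IFN-γ-high as in low spots, so the same split was made at equal macrophage score. There the summed macrophage list was 0.996 to 1.04 times as high, though 5 of its 14 genes were called higher and 6 lower, so that only the sum was matched. All 3 copies were again called higher, where 9.16% of 13880 genes were. The log2 fold change was 0.58 ± 0.05 for Bcl2a1a (adjusted p = 5.66e-06), 0.28 ± 0.05 for Bcl2a1b (adjusted p = 0.00164) and 0.50 ± 0.07 for Bcl2a1d (adjusted p = 0.000418). The summed copies were higher in 4 of 4 sections, by 1.17 to 1.54 times. Among T cell genes 9 of 12 were still called higher in this split, and their part in the result was not tested.

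**Figure D2:**
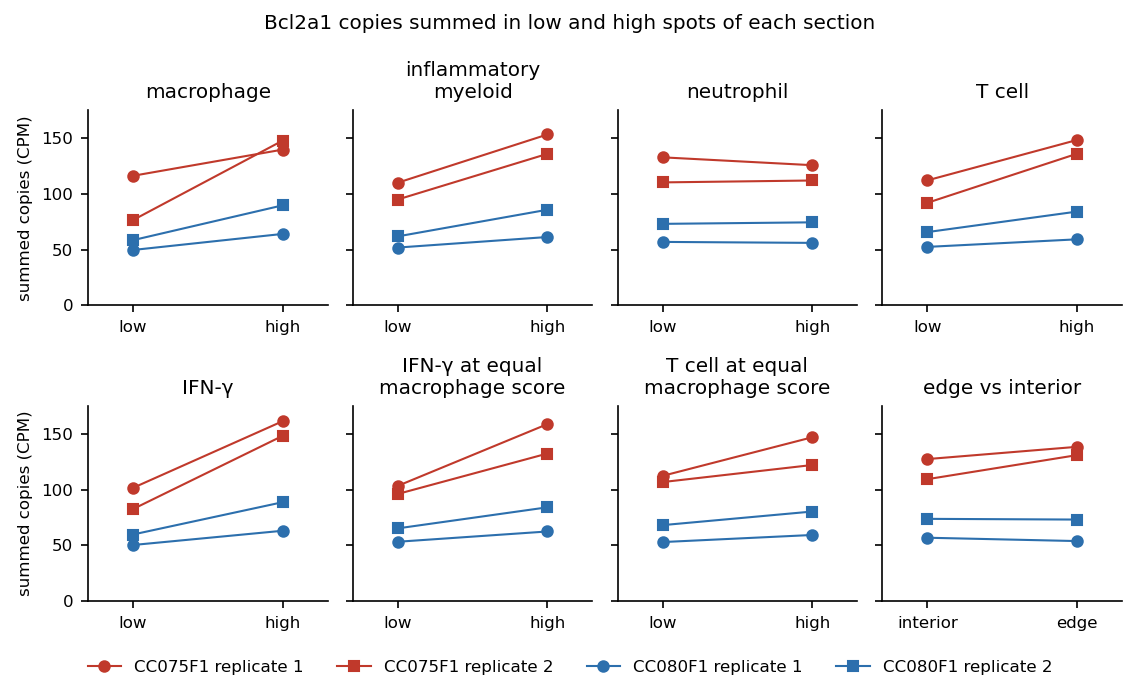
Summed Bcl2a1 copies in CPM in low and high spots of each section for 8 splits (edge against interior in the last panel). Lines join the classes of 1 section; the copies were higher in high spots of all 4 sections in the macrophage, inflammatory myeloid, T cell and IFN-γ splits and in 2 of 4 sections in the neutrophil and edge splits.

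In T cell-high spots all 3 copies were called higher, where 6.27% of 13890 genes were. The list holds 12 genes of the T cell receptor complex and other T cell surface and signalling proteins, led by the receptor genes Trbc2, Cd3g, Cd3d and Trac. In CC080F1 it was sparse, with 2371 UMIs over 2787 spots in replicate 1 and 2858 UMIs over 3174 spots in replicate 2. The classes there rest on few UMIs, with ties in rank broken at random, also in the split at equal macrophage score. The summed copies were at 148 against 112 CPM and 136 against 91.9 CPM in the CC075F1 sections and at 59.2 against 52.4 CPM and 84.1 against 65.7 CPM in the CC080F1 sections. High spots were above low spots in all of them. The log2 fold change was 0.45 ± 0.04 for Bcl2a1a (adjusted p = 0.000902), 0.25 ± 0.04 for Bcl2a1b (adjusted p = 0.00582) and 0.44 ± 0.07 for Bcl2a1d (adjusted p = 0.00455).

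At equal macrophage score the T cell difference was again called for each copy, where 5.57% of 13927 genes were called higher. It was 0.32 ± 0.06 for Bcl2a1a (adjusted p = 0.00353), 0.14 ± 0.03 for Bcl2a1b (adjusted p = 0.0179) and 0.36 ± 0.05 for Bcl2a1d (adjusted p = 0.000649). The call for Bcl2a1b was lost without CC075F1 replicate 1 (adjusted p = 0.11) and without CC080F1 replicate 2 (adjusted p = 0.082). Of the IFN-γ-induced genes, 9 of 12 were called higher in these spots, and so were all 6 MHC class II genes.

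In macrophage-high spots the copies were higher by similar amounts. The 14 genes of this list are led by the lysozyme gene Lyz2, the lipoprotein gene Apoe and the complement genes C1qb and C1qa. The summed copies were at 140 against 116 CPM and 148 against 76.4 CPM in CC075F1 and at 64.0 against 49.6 CPM and 89.7 against 58.4 CPM in CC080F1. All sections went the same way, but CC075F1 replicate 2 had a ratio of 1.93 where the others lay between 1.20 and 1.54. The log2 fold change was 0.44 ± 0.10 for Bcl2a1a (adjusted p = 0.0461), 0.46 ± 0.07 for Bcl2a1b (adjusted p = 0.0189) and 0.43 ± 0.11 for Bcl2a1d (adjusted p = 0.0616). So 2 of 3 copies were called higher, where 4.87% of 13828 genes were. The call for Bcl2a1a was lost without CC075F1 replicate 2 (adjusted p = 0.0544), CC080F1 replicate 1 (adjusted p = 0.0937) or CC080F1 replicate 2 (adjusted p = 0.225). The call for Bcl2a1b was lost without CC080F1 replicate 2 (adjusted p = 0.164), when 3 genes in all were called. In the same spots all 6 MHC class II, 7 of 12 IFN-γ-induced, 4 of 9 type I interferon and 3 of 12 T cell genes were called higher, and their part was not tested.

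In spots high for inflammatory myeloid genes all 3 copies were called higher, where 8.03% of 13828 genes were. The list holds 12 genes of monocytes and activated myeloid cells, led by the chemokine receptor gene Ccr2, Plac8, the prostaglandin synthase gene Ptgs2 and the matrix gene Vcan. The summed copies were at 153 against 110.0 CPM and 136 against 94.9 CPM in CC075F1 and at 61.2 against 51.8 CPM and 85.7 against 61.8 CPM in CC080F1, higher in high spots each time. The log2 fold change was 0.43 ± 0.05 for Bcl2a1a (adjusted p = 0.000703), 0.38 ± 0.04 for Bcl2a1b (adjusted p = 0.000594) and 0.42 ± 0.06 for Bcl2a1d (adjusted p = 0.00138). The macrophage list was 1.03 to 1.34 times as high in these spots, with 9 of 14 genes called higher, and so were 8 of 12 T cell, 9 of 12 IFN-γ-induced, all 6 MHC class II and all 5 measured mast cell genes. The part of these lists was not tested.

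No difference was called in spots split by the neutrophil list, where 10.4% of 13859 genes were called in either direction. The list hardly measured neutrophils: Mmp9, which other cells also express, made 76.9 to 96.2% of its UMIs, and the defining gene Ly6g had 0 to 2 UMIs per section. The summed copies were at 126 against 133 CPM and 112 against 110 CPM in CC075F1 and at 56.0 against 56.8 CPM and 74.4 against 73.0 CPM in CC080F1. The classes lay close together in every section. The log2 differences were -0.08 for Bcl2a1a (95% interval from the SE, -0.16 to 0.01), 0.01 for Bcl2a1b (-0.05 to 0.06) and -0.13 for Bcl2a1d (-0.23 to -0.02), with adjusted p-values of 0.326, 0.924 and 0.153. In an alternative chosen after seeing the data, Mmp9 was left out of the list. Far fewer genes were called in all and 0 of the copies, with differences of 0.10, 0.08 and 0.00. Few UMIs then remained in the list and ties in rank were broken at random, so no conclusion is drawn from this split.

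The rim of the tumor was compared with the inside by setting spots at most 3 grid steps from the tissue border against all others, and 0 of 3 copies were called, where 0.879% of 14341 genes were. The differences were 0.02 for Bcl2a1a (-0.10 to 0.15), 0.01 for Bcl2a1b (-0.09 to 0.11) and -0.03 for Bcl2a1d (-0.19 to 0.14). The upper end of each interval lies below the same copy's log2 difference in IFN-γ-high spots. A difference between the strains in this contrast was called for 0 of 3 copies, where 0.0906% of 14341 genes passed.

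**Figure D3:**
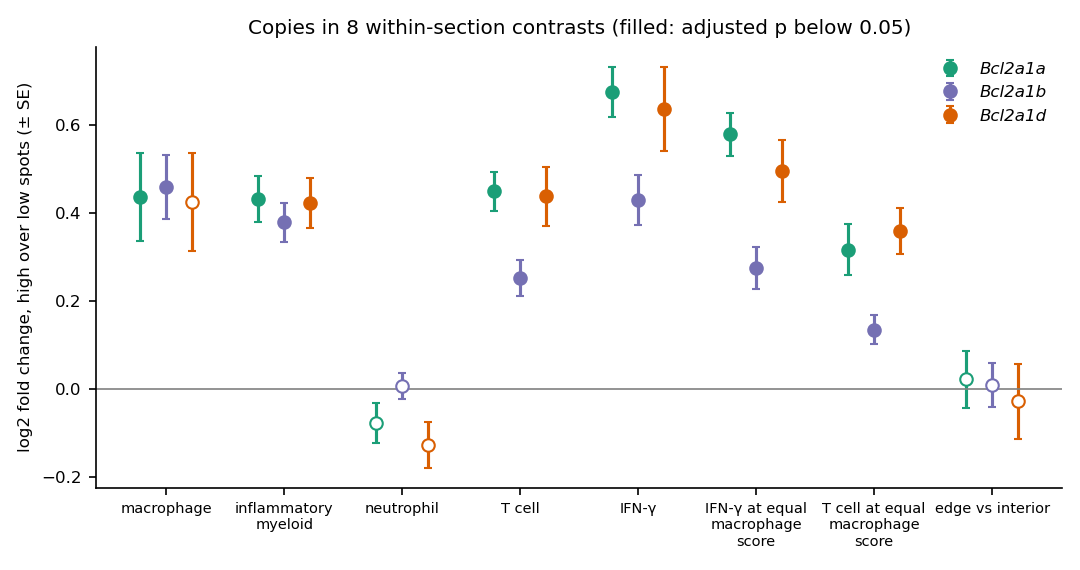
Log2 fold change (± SE, 4 sections) of each copy in 8 within-section contrasts from edgeR, high over low spots and edge over interior. Filled points passed an adjusted p of 0.05; in the 4 IFN-γ and T cell contrasts Bcl2a1b lies below Bcl2a1a and Bcl2a1d, whereas in the macrophage and inflammatory myeloid contrasts the 3 copies lie together.

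In each IFN-γ and T cell contrast Bcl2a1b had the smallest log2 difference of the 3 copies. The balance was therefore compared as the share of each copy among the family's UMIs, a comparison chosen after these folds had been seen. At equal macrophage score, Bcl2a1b made 65.2% of the family in IFN-γ-high and 68.6% in low spots of CC075F1 replicate 1, and 67.7% and 71.4% in replicate 2. In CC080F1 it made 69.9% and 74.1% in replicate 1 and 69.8% and 73.7% in replicate 2. The share of Bcl2a1b was lower in high spots of all 4 sections, by 3.8 ± 0.34 percentage points on average (SD, n = 4). The share of Bcl2a1a was higher by 2.79 ± 0.79 points and that of Bcl2a1d by 1.01 ± 0.48 points, in 4 of 4 sections each.

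In T cell-high spots the share of Bcl2a1b differed by -2.68 ± 0.64 points, that of Bcl2a1a by 1.75 ± 0.99 and that of Bcl2a1d by 0.93 ± 0.43, again the same way in all 4 sections. In macrophage-high spots the differences were small beside their spread (0.52 ± 1.75 points for Bcl2a1b, positive in 2 of 4 sections), and likewise in inflammatory myeloid-high spots (-0.67 ± 1.08 points, positive in 2 of 4). In the Mmp9-led split the share of Bcl2a1b was higher by 1.42 ± 0.58 points, the same way in all 4 sections. That of Bcl2a1d differed by -0.82 ± 0.43 points, also the same way in all 4 sections. With Mmp9 left out of the list, which leaves few UMIs to rank spots by, the difference of Bcl2a1b was 0.23 ± 2.02 points. The two-sided exact permutation test that flips the sign of each section gave p = 0.125 for each of the shares that went the same way in all sections, the smallest p that 4 sections allow, so none of the 24 comparisons could pass 0.05.

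**Figure D4:**
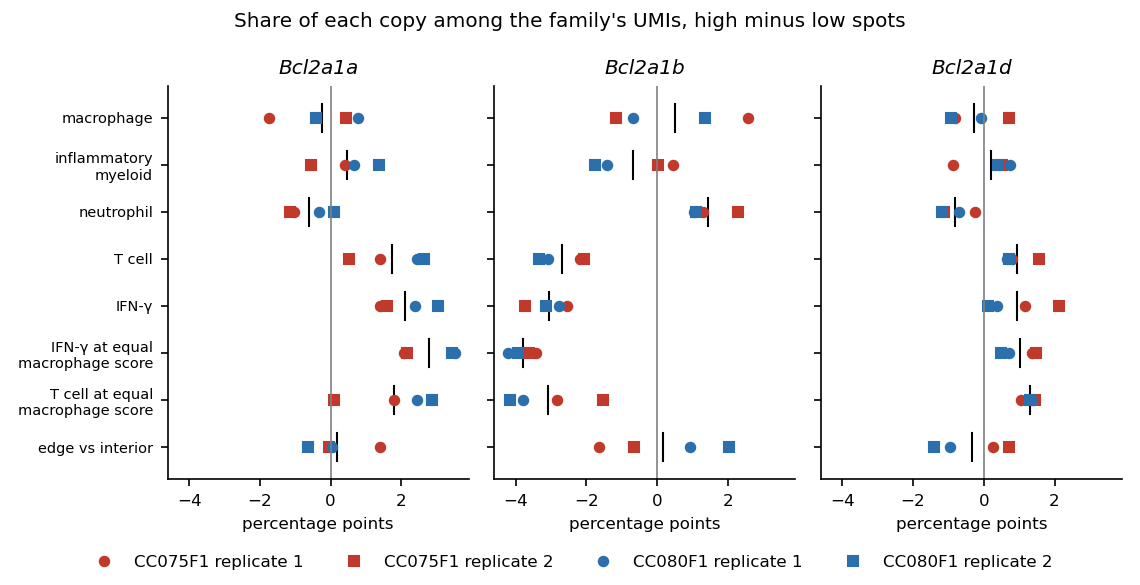
Difference between high and low spots in the share of each copy among the family's UMIs, in percentage points, for 8 contrasts and 4 sections (lines, mean of 4). In the IFN-γ and T cell contrasts all 4 sections lie below 0 for Bcl2a1b and above 0 for Bcl2a1a and Bcl2a1d, and in the macrophage contrast the sections lie on both sides.

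Macrophage and IFN-γ scores were also crossed in tertiles, as a description. In spots low for both, the summed copies were at 94.2 and 65.3 CPM in CC075F1 and at 45.5 and 52.5 CPM in CC080F1. In spots high for both they were at 165 and 162 CPM and at 68.2 and 95.8 CPM, 1.5 to 2.48 times as high. From low to high IFN-γ score the copies were 1.28 to 1.75 times as high within the low macrophage tertile and 1.17 to 1.45 times within the high macrophage tertile. From low to high macrophage score they were 1.21 to 1.95 times as high within the low IFN-γ tertile and 1.12 to 1.42 times within the high IFN-γ tertile. Each of these ratios was above 1 in all 4 sections.

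**Figure D5:**
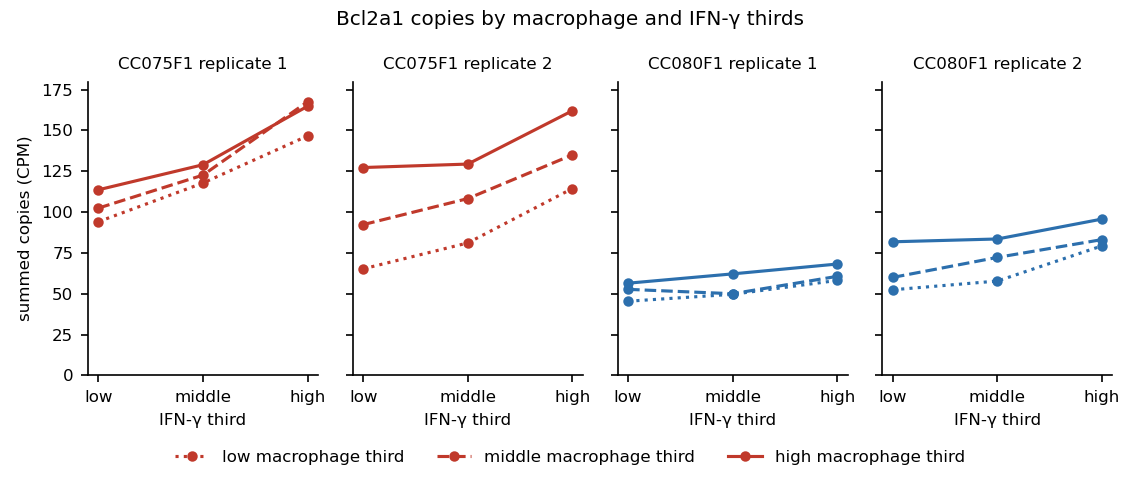
Summed Bcl2a1 copies in CPM by IFN-γ tertile (x axis) and macrophage tertile (line style) within each section, at equal spot depth. CC075F1 sections are red and CC080F1 sections blue; in each section the spots high for both scores exceed those low for both, by 1.5 to 2.48 times.

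Whether these differences were larger in one strain was tested as an interaction. For IFN-γ-high spots the log2 difference of the summed copies was larger in CC075F1 by 0.25 ± 0.09 (unadjusted p = 0.0169, adjusted p = 0.645 in edgeR). For Bcl2a1d it was larger by 0.42 ± 0.14 (unadjusted p = 0.0124, adjusted p = 0.586), for Bcl2a1b by 0.24 ± 0.09 (unadjusted p = 0.0194, adjusted p = 0.684) and for Bcl2a1a by 0.11 ± 0.12 (unadjusted p = 0.385, adjusted p = 0.99). At equal macrophage score the summed copies differed by 0.20 ± 0.07 (unadjusted p = 0.0118, adjusted p = 0.475) and Bcl2a1a by 0.04 ± 0.11 (unadjusted p = 0.731). In the T cell contrast the same edgeR interaction was 0.15 ± 0.07 for the summed copies (unadjusted p = 0.0495, adjusted p = 0.899). In the T cell contrast at equal macrophage score it was 0.04 ± 0.06 (unadjusted p = 0.514). In the macrophage and inflammatory myeloid contrasts the summed copies differed by 0.08 ± 0.17 (unadjusted p = 0.674) and 0.10 ± 0.08 (unadjusted p = 0.258). None of the 3 copies passed the correction in either IFN-γ contrast, where 0.101% and 0.295% of the genes did, and the tertiles are taken within each section, so they stand for different absolute levels in the strains.

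Across single spots the relation was weak. With every spot thinned to 10000 UMIs, Pearson's r on log2(1 + UMIs) between the summed copies and a list, averaged over the 4 sections (2549 to 3174 spots each), was 0.183 for MHC class II genes, 0.156 for macrophage genes and 0.149 for IFN-γ-induced genes. It was 0.0677 for T cell, 0.0745 for inflammatory myeloid genes and 0.0236 for the neutrophil list. The copies correlated with each other at 0.0279 to 0.0417. A thinned spot held 0.55 to 1.27 UMIs of the family on average, and such weak correlations in sparse counts are no finding. When each spot was summed with its 6 neighbours and thinned to 20000 UMIs, r was 0.197 for MHC class II, 0.176 for IFN-γ-induced, 0.141 for macrophage and 0.0879 for T cell genes. Thinned to 100000 UMIs instead, a depth chosen after seeing the data, r was 0.410 for MHC class II, 0.356 for IFN-γ-induced, 0.289 for macrophage, 0.256 for T cell and 0.0459 for type I interferon genes. The range over sections was wide, for the macrophage list 0.0664 to 0.579. Neighbouring sums share spots, so they are not independent points.

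Moran's I over the 6 nearest neighbours, a measure of clustering in space that is near 0 for a random layout, averaged 0.0760 for the summed copies (0.0337 to 0.125 over sections). It averaged 0.479 for the macrophage list, 0.613 for MHC class II and 0.403 for IFN-γ-induced genes. These lists have far more UMIs per spot than the family, and their indices are not compared at equal counts.

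By the same per-spot correlation, the 10 genes most like the summed copies among 8458 genes were Cd74, Tmsb4x, Cxcl9, H2-Ab1, Lyz2, AW112010, Psap, Tyrobp, Ctss and H2-Aa. Cd74 (mean r = 0.184), H2-Ab1 and H2-Aa belong to MHC class II presentation, Ctss encodes the protease cathepsin S, Psap the lysosomal precursor prosaposin, Lyz2 a lysozyme and Tyrobp an adaptor of myeloid and NK cell receptors. The median gene had r = 0.0046 with the summed copies. The 100 genes most like the family held all 6 MHC class II genes. They held 6 of 13 macrophage, 5 of 7 IFN-γ-induced and 2 of 5 inflammatory myeloid genes abundant enough to be compared. Of the T cell genes a single one was abundant enough, and 0 were among the 100. The 10 named genes averaged 2.07 (Cxcl9) to 38.1 (Tmsb4x) UMIs per thinned spot. The part of abundance in the order was not tested. Bcl2a1a was most like Cxcl9, followed by Cd74, AW112010, Serpina3g and Tmsb4x. Bcl2a1b was most like Cd74, followed by Lyz2, H2-Ab1, Tmsb4x and Cxcl9, and Bcl2a1d most like Tmsb4x, followed by Cd74, H2-Ab1, Cxcl9 and AW112010. The mean r behind the orders of single copies was at most 0.158, and neighbours in each order differ by less than their range over sections.

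Of 14 measured relatives of A1 in the BCL-2 family, 3 were called in IFN-γ-high spots, where 19.1% of all genes were called in either direction, a share near that of the relatives. Of the pro-survival genes Mcl1, Bcl2l1 (BCL-XL), Bcl2 and Bcl2l2 (BCL-W), 0 of 4 were called in IFN-γ-high spots, with log2 differences of -0.04, -0.07, 0.08 and -0.18. In inflammatory myeloid-high spots 5 of 14 relatives were called, where 12.7% of all genes were. Mcl1 (0.10, adjusted p = 0.0403), Bak1 (0.15, adjusted p = 0.0358) and Pmaip1 (0.59, adjusted p = 0.0354) were higher there, and Bmf (-0.35, adjusted p = 0.00899) and Bbc3 (-0.31, adjusted p = 0.00697) were lower. The pro-survival gene Bcl2l10 and the BH3-only gene Hrk had no UMI in any section. Of the effectors, Bak1 rose in IFN-γ-high spots by 0.29 (adjusted p = 0.00424) while Bax (-0.10) and Bok (0.02) were not called. Among the BH3-only genes, Pmaip1, which encodes NOXA, rose by 0.58 (adjusted p = 0.047) and Bbc3, which encodes PUMA, fell by 0.23 (adjusted p = 0.0393), and the other 5 of 7 were not called. The median over the 4 measured pro-survival genes was -0.06, beside -0.02 over all genes. In the strain contrast 0 of these 14 relatives were called, and the medians were -0.05 for the pro-survival, 0.35 for the effector and 0.32 for the BH3-only genes.

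NF-κB target genes and genes of the GM-CSF axis were counted in the same way. Over all genes, 9.86% were called higher in IFN-γ-high, 4.87% in macrophage-high and 6.27% in T cell-high spots. Of 12 NF-κB target genes, 4 were called higher in IFN-γ-high spots, 3 in macrophage-high and 2 in T cell-high spots, with 0 called lower in each and medians of 0.07, 0.04 and 0.01. Of 5 measured genes of the GM-CSF axis, 3 were called higher in each of these 3 contrasts, with medians of 0.48, 0.50 and 0.27. The part of either route in the levels of the copies was not tested. The cytokine gene Il3 had no UMI in any section, and Csf2, which encodes GM-CSF itself, had 2 to 5 UMIs per section.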

How the data were processed

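Visium sections of 4 tumors were analysed. The authors aligned reads with Space Ranger to a mouse reference (GRCm38, mm10) and deposited raw UMI counts per gene and spot under tissue, without normalization. The submitters' processing notes also name Seurat 5.0.1, without its role. Spot positions were used as deposited. The members and gene lists were chosen with earlier results of these data known. The study's methods describe sections of 4 tissue blocks on a Visium slide and libraries pooled for sequencing, and no batch is given per section in the sources used here.

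UMIs were summed per section (strain contrast) or per section and spot class (within-section contrasts) and tested with edgeR 4.0.16 in R 4.3.3 by quasi-likelihood, with filterByExpr, TMM and Benjamini-Hochberg adjustment at 0.05. The 2 sections of a strain are numbered as biological replicates per the labels. Spot classes were tertiles within 10 strata of depth, crossed with 5 strata of macrophage score where stated. Spots were thinned without replacement with a fixed seed, and depth limits shares of spots as their 95% exact intervals show. Named genes were the 3 copies, Bcl2a1c, the listed BCL-2 relatives, and the 10 genes most like the summed copies and 5 most like each copy, among genes of at least 0.1 UMI per thinned spot and the same sign in 4 sections. Alternatives were DESeq2 1.42.0, other scaling, no filter, other splits and depths, the copies summed, a replicate block and leaving out each section.

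On simulated data with 200 changed genes and dispersions on the fitted trend, the IFN-γ design recovered 87.5% of 1.5-fold and 95% of 2-fold changes (13737 genes, 4 false among 188 calls), and the strain design 26.2% of 2-fold and 75% of 4-fold changes (15323 genes, 2 false among 54). With dispersions drawn gene by gene, false calls made 8.46% and 32.4% of all calls. The result of 1 motif search is not reported here.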

Additional observations from a re-analysis of the deposited data

Results flagged for a closer look

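Between the rim and the inside of the tumor, the ratios of Bcl2a1a and Bcl2a1d lay on opposite sides of 1 in the strains, whereas those of Bcl2a1b did not. Bcl2a1a was 1.16 and 1.19 times as high at the edge as inside in the CC075F1 sections and 0.95 and 0.955 times as high in the CC080F1 sections, so that the ratio of the strain means was 1.24. Bcl2a1d was 1.11 and 1.28 times as high against 0.874 and 0.877 times, a ratio of 1.36, and the summed copies gave a ratio of 1.18. Each was singled out because every section of one strain lay above 1 and every section of the other below 1. This rule was applied in 8 contrasts to each of the 3 copies and to their sum, which contains the copies. The interaction in edgeR did not pass the correction for any of them, with log2 differences of 0.16 ± 0.13 for Bcl2a1a (adjusted p = 0.76), 0.30 ± 0.14 for Bcl2a1d (adjusted p = 0.604) and 0.09 ± 0.10 for the summed copies (adjusted p = 0.842), where 0.0906% of 14341 genes passed. The ratios are of CPM, whereas the edgeR fit also scales by TMM. Bcl2a1b was 1.06 and 1.19 times as high at the edge in CC075F1 and 0.959 and 1.02 times in CC080F1. The macrophage list was 1.36 times as high at the edge in CC075F1 replicate 2 and between 0.930 and 0.978 times in the other sections. Its part was not tested.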

How the results depend on the processing

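In the strain contrast 14 genes were called, and 40 with library size alone, 480 without the filter on low counts and 194 with DESeq2. With the replicate number as a replicate block 287 were called. The deviations of same-numbered sections correlated at r = 0.165 over 15572 genes, with 2 pairs, and no label ties the numbers to a shared batch, so whether they pair the sections is not known. All 3 copies passed without the filter, with DESeq2 and with the block. Nothing is read from these calls, since the contrast was used to choose the genes. The cause of the changes in calls was not tested. Leaving out a section left 11 to 207 genes called.

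Within sections, no filter gave 1682 genes in the macrophage contrast (1026 otherwise), and Mmp9 left out of the neutrophil list gave 127 (1446 otherwise). The edge contrast (126) gave 677 without the filter, 75 with a minimum depth of 10000 UMIs, 273 when spots with skin, muscle or fat genes were dropped and 36 with an edge of 5 steps. Leaving out a section gave 3 to 1167 genes for macrophage, 515 to 2092 for inflammatory myeloid, 549 to 1196 for neutrophil, 303 to 2298 for T cell and 786 to 3113 for IFN-γ genes. It gave 1421 to 2786 for IFN-γ and 554 to 2129 for T cell genes at equal macrophage score, and 1 to 854 for the edge.

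Differences that were never called changed sign. In the neutrophil contrast Bcl2a1b was at -0.0086 with a split at the median and between -0.020 and 0.028 with a section left out, and with Mmp9 left out Bcl2a1a was at 0.10 and Bcl2a1d at 0.0033. At the edge Bcl2a1a was at -0.012 and Bcl2a1b at -0.024 without the filter, and Bcl2a1d at 0.085 with 5 steps. With a section left out they ran from -0.027 to 0.055, -0.0045 to 0.036 and -0.088 to 0.030. In the macrophage contrast the call for Bcl2a1a was also lost with a split at the median (adjusted p = 0.0571 in edgeR), and Bcl2a1d passed without the filter (adjusted p = 0.0198). The calls in the inflammatory myeloid contrast, the T cell contrast and both IFN-γ contrasts held for all 3 copies under every alternative run. With 2 sections per strain, the strain contrast had low power for 2-fold changes.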
